A study of Mus musculus with 6 samples.

Results

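The mitosis and spindle genes are 45 mouse genes whose products build the spindle, attach chromosomes to it, hold or release the checkpoint, and split the cell, and they were picked by gene symbol from the 52550 genes of the count table. These 45 genes, and the lists compared with them below, were chosen with earlier results of these data known. All 45 matched 1 Ensembl identifier each, and all 45 were among the 14786 genes that passed the filter on low counts. RNA was sequenced from CD3+ T cells of wild-type mouse spleen. The cells were activated for 24 h with anti-CD3/CD28, antibodies that engage the T cell receptor and its costimulatory partner, in 3 samples without further addition (called alone here) and in 3 samples with DMGV (dimethylguanidino valeric acid, a product of methylated arginines) at 100 ng/ml. All 6 samples were activated, and unactivated cells were not analysed here. The labels name DMGV, whereas the text of the study describes RNA sequencing at this time point with LNY1. LNY1 was purified from medium of mouse embryonic fibroblasts, and the study equates it with ADMA and SDMA. DMGV is made from these methylated arginines. The labels call the samples biological replicates, and the legend of the study calls them independent biological samples, but neither ties them to separate mice, so the p-values measure the spread between these samples. The study's methods say that male and female mice of several weeks of age were used and name C57BL among its strains, without saying which strain, sex or age gave these samples. The study describes the cells as undivided at this time. In such bulk RNA, fewer cells in mitosis and less mitotic RNA per cell cannot be told apart.

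A T cell that is activated leaves rest, copies its DNA and only then enters mitosis, and the genes of the mitotic machinery are transcribed late, in the G2 and M phases. Many of them share a promoter with CCAAT boxes, bound by NF-Y, and a cell cycle genes homology region (CHR). The DREAM complex holds them silent through the CHR in resting cells, and the MYB-MuvB complex and FOXM1 use the same element when they are switched on. Their RNA level in a population is commonly used to follow cycling cells.

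In the count data these genes were a little lower with DMGV, and no single gene passed the threshold. Of the 45 genes 41 had a log2 fold change (DMGV minus alone) below 0, against 49.4% of all genes tested, and the 4 others were Bub3, Fzr1, Pttg1 and Spc25. Their median log2 fold change was -0.23, beside 0.0024 over all genes, and the genes ran from -0.65 for Cenpf to 0.19 for Bub3. With edgeR's quasi-likelihood test and Benjamini-Hochberg adjustment over all 14786 genes, 0 of the 45 were called at an adjusted p under 0.05, where 0.0135% of all genes (2 genes) were called, and the adjusted p of each of the 45 was 0.999. DESeq2 also called 0 of them. At an unadjusted p under 0.05, 15 of the 45 (33.3%) were lower and 0 were higher, against a background of 1.56% of all genes lower. Every DMGV sample was below every sample activated alone for 15 of the 45 genes, against 3.94% of all genes, and 11 genes were in both sets. The 45 genes were read in the same 6 samples and many share regulation, so these counts are not independent observations. For 21 of the 45, anti-CD3/CD28 replicate 2 was the highest sample, against 17.3% of all genes. The standard errors ran from 0.07 to 0.57 on the log2 scale. An exact permutation test of 3 against 3 samples of a single gene cannot give a p below 0.1.

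**Figure D1:**
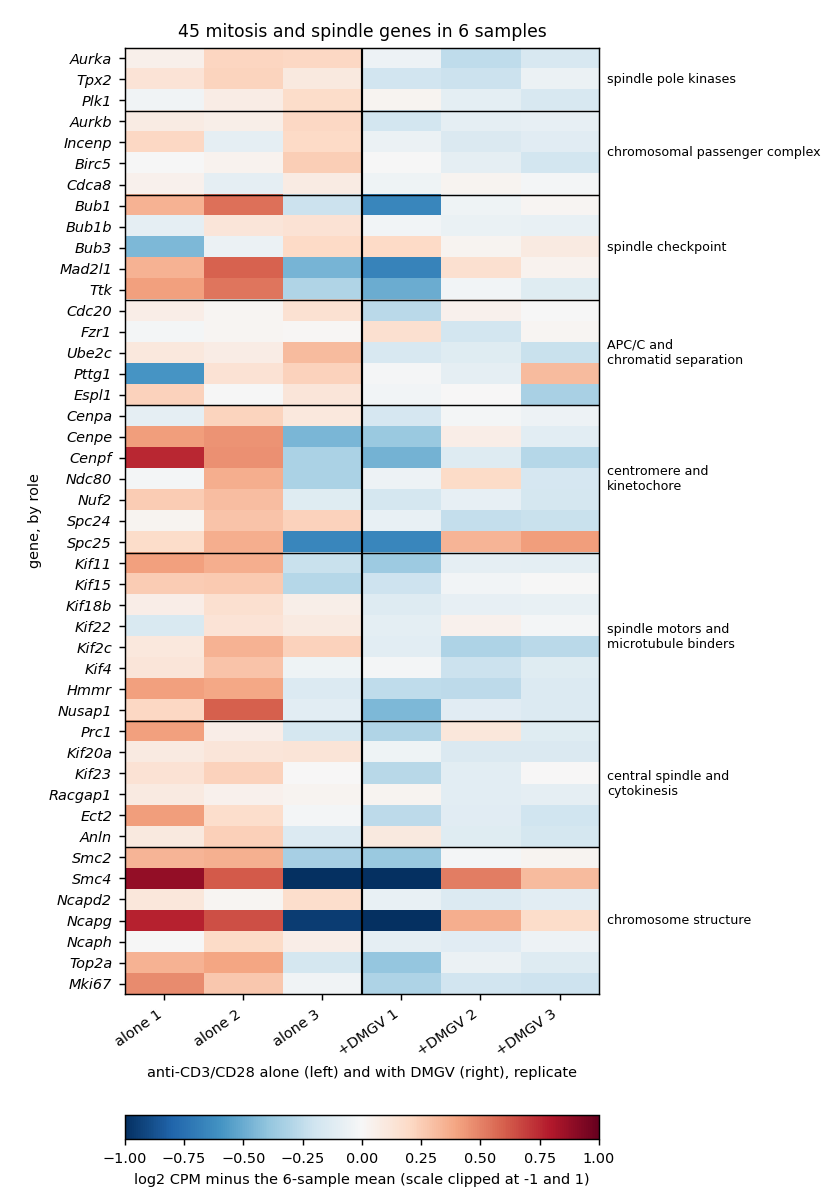
Level of each of the 45 genes (rows, by role) in the 6 samples (columns), as log2 CPM (counts scaled to library size) minus the gene's 6-sample mean, with red above and blue below the mean and the colours clipped at -1 and 1. The columns alone 1 and alone 2 are mostly red and the 3 DMGV columns mostly pale blue, while alone 3 is blue for the same rows of the checkpoint, kinetochore and chromosome structure groups that are darkest in +DMGV 1.

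Before the genes are taken singly, 2 libraries must be named. Anti-CD3/CD28 replicate 3 and DMGV replicate 1 stood apart from the other 4 on the first principal component of all genes (32.2% of the variance), with scores of 42.1 and 42.9 against -34.9 to -10.5 for the others. They are 1 of each group. Without both, 22 of the 45 genes were lower at an unadjusted p under 0.05, against 3.63% of all genes lower in that fit, a share also above the 1.56% with all 6 samples, and the median log2 fold change was -0.27. Summed counts ran from 37758725 to 43718867 per sample, and single counts of the 45 genes from 336 to 28503. T cell markers were high in every sample, the defining markers of neutrophils were at 0, and those of B and myeloid cells summed to between 10.7 and 18 CPM in any sample.

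Sample by sample, the median of the 45 genes' log2 deviations from their 6-sample means was 0.12, 0.22 and 0.01 in the samples activated alone and -0.17, -0.09 and -0.10 with DMGV. The groups did not overlap on this median, but anti-CD3/CD28 replicate 3 lay between the other 2 controls and the DMGV samples. In replicates 1, 2 and 3 activated alone, 35, 41 and 24 of the 45 genes were above their 6-sample mean, and with DMGV 5, 12 and 10 were. Together the 45 genes took 0.437%, 0.422% and 0.340% of all counts in the samples activated alone. With DMGV they took 0.30%, 0.345% and 0.334%. On that summed share, which a few abundant genes dominate, DMGV replicate 2 was above anti-CD3/CD28 replicate 3, so the groups overlapped.

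The promoter letters show what these genes share. Promoters of 300 bases, from 250 bases before to 50 bases after the start, were taken from RefSeq (GRCm38.p6). The table held 42 promoters of 39 of the 45 genes, and Aurkb, Incenp, Kif20a, Smc4, Spc24 and Tpx2 had no entry. The CHR (TTTGAA, read on both strands) was in 33 of the 42 (78.6%), against 17.9% of all 32851 promoters. The CCAAT box, spelled as its name and also read on both strands, was in 32 (76.2%), against 37.4%, and both together in 29 (69.0%), against 6.95%. The variant TTTAAA was in 8 (19.0%), against 13.2%. A CHR beginning within 50 bases on either side of the start was in 29 of the 42 (69.0%), against 4.94% of all. A CHR or its variant can share 1 base with a CCAAT box at their ends, but not with each other. These are matches of letters, not measured binding.

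Shown here are the promoters of Mki67, lowest with DMGV among the genes over 10 FPKM (fragments scaled to gene length and library total), of Bub3, the highest of those, and of Top2a, the gene of highest FPKM for which the table has a promoter. Capitals mark CHR and CCAAT letters on either strand, so TTCAAA is a CHR read from the other strand, and a CCAAT box read that way is ATTGG. Each is written 5′ to 3′ on the gene's own strand.
Mki67 (chr7:135716330-135716629, minus strand): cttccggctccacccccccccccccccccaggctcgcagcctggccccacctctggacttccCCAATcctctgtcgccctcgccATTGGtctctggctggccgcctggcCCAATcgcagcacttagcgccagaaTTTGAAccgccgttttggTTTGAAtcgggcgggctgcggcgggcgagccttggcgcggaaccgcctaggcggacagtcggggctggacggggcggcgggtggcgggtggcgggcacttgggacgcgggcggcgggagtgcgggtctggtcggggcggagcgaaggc
Bub3 (chr7:131560120-131560419, plus strand): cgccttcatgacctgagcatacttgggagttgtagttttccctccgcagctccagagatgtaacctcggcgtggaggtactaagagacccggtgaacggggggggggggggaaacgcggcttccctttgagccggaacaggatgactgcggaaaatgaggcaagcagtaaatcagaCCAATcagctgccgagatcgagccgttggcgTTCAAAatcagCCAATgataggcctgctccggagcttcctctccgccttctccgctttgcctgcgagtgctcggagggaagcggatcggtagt
Top2a (chr11:99024140-99024439, minus strand): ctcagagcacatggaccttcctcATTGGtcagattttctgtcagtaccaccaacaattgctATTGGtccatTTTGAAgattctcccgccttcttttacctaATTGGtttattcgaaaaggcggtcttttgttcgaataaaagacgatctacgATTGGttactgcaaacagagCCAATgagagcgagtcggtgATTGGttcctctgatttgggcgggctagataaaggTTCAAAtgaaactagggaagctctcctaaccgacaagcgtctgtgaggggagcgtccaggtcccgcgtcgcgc
The Mki67 promoter has a pair of CHRs, beginning at -116 and -98 from the start, and CCAAT boxes at -188, -166 and -141. In Top2a CHRs begin at -179 and -23, the second close to the start, and 6 CCAAT boxes lie upstream. Bub3, which was not lower with DMGV, has both elements too, with a CHR at -43 and CCAAT boxes at -74 and -32 (the table holds a second, downstream start for it). Over the 39 genes the median log2 fold change was -0.22 for the 30 with a CHR and -0.30 for the 9 without, and -0.25 for the 29 with a CCAAT box and -0.18 for the 10 without. Whether these subsets differ was not tested.

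Of the 3 spindle pole genes, all had negative log2 fold changes, with a median of -0.31, and 2 were at an unadjusted p under 0.05. Beside this count, and each such count by role below, 1.56% of all genes were lower at that threshold. AURKA, activated on microtubules by TPX2, ripens the spindle poles, and PLK1 drives mitotic entry and pole formation. Tpx2 had 74.3, 78.6 and 72.3 CPM in the samples activated alone and 59.1, 58.0 and 64.7 CPM with DMGV, so the groups did not overlap. Its log2 fold change was -0.31 with a standard error of 0.08 (edgeR unadjusted p = 0.0077). Aurka had 27.5, 30.7 and 30.6 CPM alone and 25.5, 22.3 and 23.7 CPM with DMGV, again without overlap (log2 fold change -0.31, SE 0.10, unadjusted p = 0.016). Plk1 had 30.4, 32.8 and 35.4 CPM alone and 31.7, 29.1 and 27.9 CPM with DMGV. Here DMGV replicate 1 was above anti-CD3/CD28 replicate 1, and the difference (-0.15, SE 0.10, unadjusted p = 0.18) was not past even the unadjusted threshold.

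The chromosomal passenger complex corrects faulty attachments at the centromere and later moves to the midzone. Its kinase is AURKB, its scaffold INCENP, and its targeting subunits survivin (Birc5) and borealin (Cdca8). All 4 genes had negative log2 fold changes, with a median of -0.20, and 1 was at an unadjusted p under 0.05. Aurkb had 50.7, 49.9 and 55.5 CPM alone and 42.3, 45.2 and 45.4 CPM with DMGV, with every DMGV sample below every control (-0.23, SE 0.09, unadjusted p = 0.033). Incenp, the most abundant of the group per length, had 138, 112 and 138 CPM alone and 115, 108 and 111 CPM with DMGV. Anti-CD3/CD28 replicate 2 lay among the DMGV samples of Incenp, and its difference was -0.22 (SE 0.10, unadjusted p = 0.062). Cdca8 differed by -0.02 (SE 0.09), the closest to 0 in this complex.

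The spindle checkpoint holds anaphase until every kinetochore is attached, through the kinases BUB1 and TTK and the inhibitors MAD2 (Mad2l1), BUBR1 (Bub1b) and BUB3. Of its 5 genes 4 were below 0, with a group median of -0.34, but 0 were at an unadjusted p under 0.05. The gene of smallest p was Ttk, with 32.5, 35.5 and 19.9 CPM alone and 17.3, 24.0 and 22.5 CPM with DMGV (-0.46, SE 0.23, unadjusted p = 0.084). Its low control was anti-CD3/CD28 replicate 3, which lay below DMGV replicates 2 and 3. Without the 2 libraries that stood apart, 1 of them this low control, Ttk differed by -0.55 (edgeR unadjusted p = 0.0031, adjusted p = 0.609). That smaller fit was added after the data were seen, and not every gene differed more in it. Aurkb, for example, then differed by -0.15 (edgeR unadjusted p = 0.185). Bub3 was the opposite, with 112, 146 and 175 CPM alone and 175, 155 and 162 CPM with DMGV, where anti-CD3/CD28 replicate 1 was lowest and the groups overlapped (0.19, SE 0.16, unadjusted p = 0.27).

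The anaphase promoting complex (APC/C) tags securin and cyclin B for destruction, with CDC20 and FZR1 (CDH1) as activators and UBE2C as its ubiquitin carrier, which frees separase (Espl1) from securin (Pttg1). The group was split, with 3 of 5 genes below 0, a median of -0.15 and 1 gene at an unadjusted p under 0.05. Ube2c had 37.3, 36.4 and 43.0 CPM alone and 31.0, 31.8 and 29.7 CPM with DMGV, without overlap (-0.34, SE 0.10, unadjusted p = 0.012). The Ube2c exons overlap those of Tnnc2 on the other strand over 22.8% of their bases, but Tnnc2 had at most 9 counts in a sample. Cdc20, highest of the group per length, had 43.4, 42.2 and 46.1 CPM alone and 34.4, 42.8 and 41.4 CPM with DMGV, and DMGV replicate 2 lay among the controls (-0.15, SE 0.11, unadjusted p = 0.21). Fzr1 (0.0012, SE 0.11) and Pttg1 (0.11, SE 0.23) were among the 4 genes that were not lower.

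At the centromere, CENP-A marks the site, and the NDC80 complex (Ndc80, Nuf2, Spc24 and Spc25) grips the microtubule end, with CENP-E and CENP-F as a motor and a large coat protein. Of the 7 genes 6 were below 0, the median was -0.30, and 3 were at an unadjusted p under 0.05. Cenpf had the lowest log2 fold change of all 45 genes (-0.65, SE 0.26, unadjusted p = 0.037). Its values were 55.2, 45 and 26.3 CPM alone and 23.6, 29.9 and 26.9 CPM with DMGV, so anti-CD3/CD28 replicate 3 lay within the DMGV range and the controls differed among themselves by more than the DMGV samples did.

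The 4 subunits of the NDC80 complex had log2 fold changes from -0.36 to 0.08. Spc24 had 40.8, 48.8 and 46.9 CPM alone and 38.2, 34.0 and 34.3 CPM with DMGV, without overlap (-0.36, SE 0.11, unadjusted p = 0.011). Nuf2 had 55.5, 57.8 and 42.8 CPM alone and 41.2, 44 and 41.4 CPM with DMGV, where anti-CD3/CD28 replicate 3 was below 1 DMGV sample (-0.30, SE 0.13, unadjusted p = 0.049). Ndc80, the highest of the kinetochore genes per length, had 37.8, 49.4 and 30.9 CPM alone and 37.0, 43.9 and 34.1 CPM with DMGV. Its difference of -0.04 (SE 0.18, unadjusted p = 0.84) was far smaller than the spread among the controls. Spc25 had 8.12 and 8.13 CPM in the 2 libraries that stood apart and between 14.5 and 17.1 CPM in the other 4. Whether the 4 subunits differ from each other was not tested.

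Among the spindle motors and microtubule binders all 8 genes were below 0, with a median of -0.32, and 3 were at an unadjusted p under 0.05. Kif2c encodes MCAK, which pulls subunits off microtubule ends at the centromere, and had the smallest p of the 45 genes (-0.46, SE 0.11, unadjusted p = 0.0035). It had 32.2, 38.1 and 35.0 CPM alone and 27.8, 24.1 and 24.8 CPM with DMGV, and the groups did not overlap. Kif11 (Eg5), the motor that pushes the poles apart and the most abundant of the group per length, had 123, 120 and 79.5 CPM alone and 71.9, 87.3 and 86.6 CPM with DMGV (-0.39, SE 0.18, unadjusted p = 0.061). Its groups overlapped at anti-CD3/CD28 replicate 3. Hmmr, a spindle assembly factor, had 33.3, 32.7 and 22.8 CPM alone and 21, 20.9 and 22.8 CPM with DMGV (-0.46, SE 0.16, unadjusted p = 0.022). The lowest control and the highest DMGV sample of Hmmr were level. Nusap1, which bundles spindle microtubules, had 37.9, 49.6 and 30.5 CPM alone and 24.1, 30.3 and 29.9 CPM with DMGV, with a bare gap between the groups (-0.49, SE 0.19, unadjusted p = 0.036).

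The central spindle and cytokinesis genes act last. PRC1 crosslinks the midzone, KIF20A carries the passenger complex there, and centralspindlin (KIF23 and RACGAP1) recruits ECT2, which switches on RhoA for the contractile ring that anillin (Anln) scaffolds. All 6 were below 0, with a median of -0.22, and 2 were at an unadjusted p under 0.05. In 4 of the 6 every DMGV sample was below every control, against 3.94% of all genes. For Kif23 (28.72 against 28.8 CPM) and Racgap1 (85.69 against 85.74 CPM) the highest DMGV sample was barely below the lowest control. Ect2 had 42.6, 36.0 and 31.5 CPM alone and 26.5, 29.5 and 27.8 CPM with DMGV (-0.39, SE 0.13, unadjusted p = 0.017). Of its transcript counts, 44.6% to 54.3% were assigned to a retained intron form. Kif20a, the highest of these genes per length, was even within groups, at 83.8, 85.8 and 86.4 CPM alone and 76.6, 71.3 and 71.2 CPM with DMGV (-0.22, SE 0.07, unadjusted p = 0.019). Over 29.3% of its exon bases Kif20a overlaps Cdc23 on the other strand (2790 to 3459 counts), and as the counting is not stated to use strand, the reads of this stretch cannot be told apart. Anln was the lowest of the 45 genes per length, at 1.54 FPKM on average.

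Chromosome structure genes were the most abundant. Condensin (Smc2, Smc4, Ncapd2, Ncapg and Ncaph) and topoisomerase II alpha (Top2a) compact and untangle the chromosomes, and Ki-67 (Mki67) coats them and is the usual marker of cycling cells. All 7 were below 0, with a median of -0.32, and 3 were at an unadjusted p under 0.05. Mki67 had 509, 443 and 358 CPM alone and 297, 322 and 318 CPM with DMGV, so even the lowest control was above the highest DMGV sample (-0.48, SE 0.13, unadjusted p = 0.0063). Top2a had 674, 698 and 471 CPM alone and 407, 509 and 486 CPM with DMGV, with anti-CD3/CD28 replicate 3 among the DMGV samples (-0.39, SE 0.16, unadjusted p = 0.045). Ncapd2, the condensin I regulatory subunit, was even, at 192, 180 and 200 CPM alone and 169, 162 and 165 CPM with DMGV (-0.21, SE 0.07, unadjusted p = 0.021).

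Smc4, the core condensin ATPase, had the highest level per length of the 45 genes (55.6 FPKM on average) and also the largest error. It had 521, 433 and 137 CPM alone and 117, 404 and 354 CPM with DMGV. The 2 libraries that stood apart were both far below the other 4, a division that cut across the treatment (-0.32, SE 0.57, unadjusted p = 0.60). Ncapg divided in the same way, with 27.0 and 25.9 CPM in those 2 libraries and 59.3 to 89.1 CPM in the other 4. Of the transcript counts of Smc4, 22.8% to 89.6% were assigned to a form annotated for nonsense-mediated decay. That form had 12423, 15817 and 3997 counts alone and 1193, 14530 and 10463 with DMGV. The main coding form had 7205, 1705 and 1588 counts alone and 3792, 2724 and 3465 with DMGV. There DMGV replicate 1 was above DMGV replicates 2 and 3, so the division was not seen. These counts are estimates, as how shared reads were divided is not stated.

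**Figure D2:**
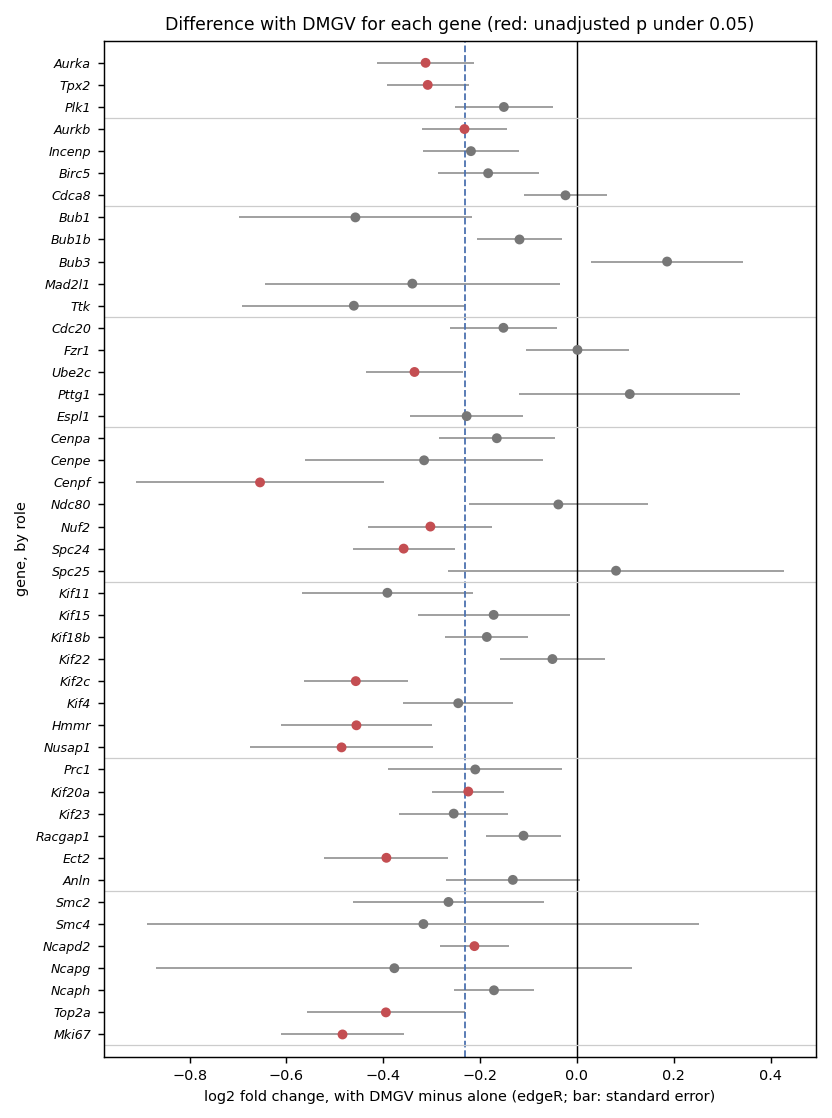
Log2 fold change (DMGV minus alone, edgeR) of each of the 45 genes by role, with bars of 1 standard error, 0 as a solid line, the genes' median of -0.23 as a dashed line, and red points for an unadjusted p under 0.05. The 15 red points are all left of 0, and the bars of Smc4, Ncapg and Spc25 are the widest.

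The 2 libraries that stood apart were low for genes of low GC content well beyond these 45. Over the lowest quartile of GC content among genes with a mean log2 CPM above 3, their median log2 deviations from the 6-sample mean were -0.23 and -0.16, against 0.05 to 0.16 in the other 4 libraries. The 45 genes showed the same pattern. Both were the lowest of the 6 samples for 13 of the 45 genes (28.9%), against 17.2% of all genes. All 13 were among the 22 genes of lower GC content (34.8% to 46.3% in the longest annotated transcript), and 0 of them among the 23 of higher GC content (46.6% to 59.9%). For the lower-GC genes the median difference on the log2 scale was -0.32 with a median standard error of 0.19, and 6 of the 22 were at an unadjusted p under 0.05. For the higher-GC genes it was -0.21 with a median standard error of 0.10, and 9 of the 23 were at an unadjusted p under 0.05. Every DMGV sample was below every control for 11 of the 23 higher-GC genes and for 4 of the 22 lower-GC genes. Over all genes of any GC content, 1.56% were lower at that threshold and 3.94% had every DMGV sample below. Shares of all genes within each GC range were not computed. The genes of higher GC content, which these libraries did not set apart, thus had the smaller median difference and the smaller spread. After a correction for GC content, 24 of the 45 genes were at an unadjusted p under 0.05, all lower, against 2.26% of all genes lower in the same fit. The median was then -0.24 and 0 of the 45 were called.

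**Figure D3:**
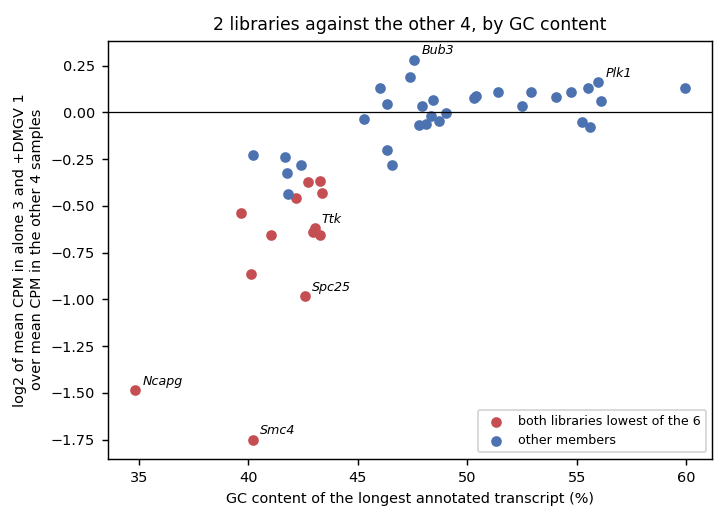
For each of the 45 genes, the log2 ratio of mean CPM in anti-CD3/CD28 replicate 3 and DMGV replicate 1 to mean CPM in the other 4 samples (vertical axis) against the GC content of its longest annotated transcript in percent (horizontal axis). The 13 genes for which both libraries were lowest (red) are all among the 22 of lower GC content, with Smc4 and Ncapg lowest, while the genes of highest GC content lie near 0.

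Other genes of the cell cycle were compared as lists. Of 98 other mitosis genes 78 were below 0, and the median log2 fold change was -0.13. At an unadjusted p under 0.05, 6 were lower and 0 higher, against 1.56% of all genes lower. Every DMGV sample was below every control for 10 of the 98, against 3.94% of all genes. The smallest p of the 98 was that of Ccna2 (cyclin A). It had 192, 167 and 141 CPM alone and 126, 135 and 124 CPM with DMGV, without overlap (-0.38, SE 0.12, unadjusted p = 0.015). Of 22 regulators of mitotic genes 17 were below 0, with a median of -0.09 and 2 at an unadjusted p under 0.05, both lower. Every DMGV sample was below every control for 2 of the 22 regulators. The smallest p there was that of Tfdp2, a dimerization partner of E2F factors, with 16.1, 31.4 and 32 CPM alone and 18, 15 and 17.7 CPM with DMGV (-0.65, SE 0.26, unadjusted p = 0.038), where anti-CD3/CD28 replicate 1 lay among the DMGV samples. The 2 activators named above as background, chosen after their values were seen, were Mybl2 (-0.19, SE 0.08, unadjusted p = 0.046) and Foxm1 (-0.27, SE 0.14, unadjusted p = 0.10).

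Of 52 S phase genes 36 were below 0, with a median of -0.05. At an unadjusted p under 0.05, 2 were lower and 0 higher, against 1.56% of all genes lower. Every DMGV sample was below every control for 11 of the 52 and above for 1, against 3.94% and 4.92% of all genes. Rrm2, a subunit of ribonucleotide reductase, had the smallest p of this list, with 276, 286 and 257 CPM alone and 232, 238 and 238 CPM with DMGV (-0.21, SE 0.07, unadjusted p = 0.019), without overlap. The 20 quiescence genes were divided, 8 below and 12 above 0, with a median of 0.03. Of these 20 genes, 2 had every DMGV sample below every control and 1 had every DMGV sample above. The quiescence gene of smallest p was Bach2, a repressor kept high in resting lymphocytes, with 222, 179 and 94.7 CPM alone and 66.9, 68.8 and 94.4 CPM with DMGV (-1.11, SE 0.30, unadjusted p = 0.0075). None of these genes, and none of the lists' other genes, passed the adjusted threshold in edgeR. Whether the lists' medians differ from each other was not tested.

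**Figure D4:**
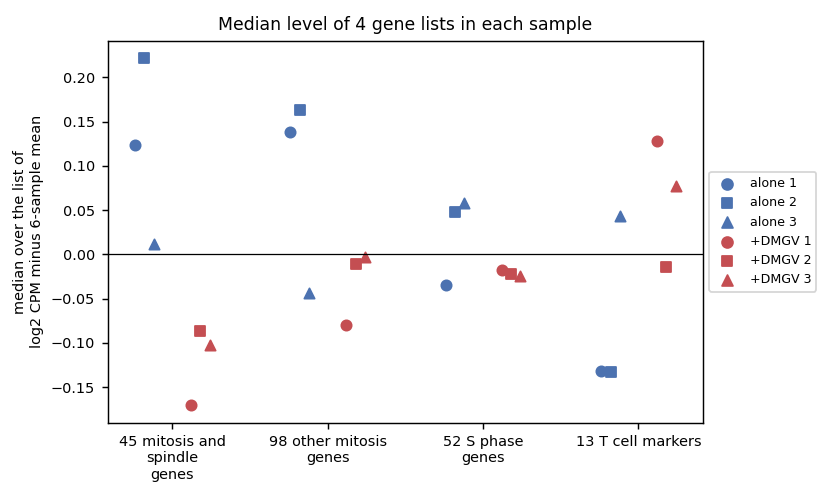
Median over each of 4 gene lists of log2 CPM minus the 6-sample mean (vertical axis) in each of the 6 samples, blue for anti-CD3/CD28 alone and red for DMGV, with the marker shape giving the replicate. The 45 mitosis and spindle genes have all 3 DMGV samples below all 3 controls (-0.17 to -0.09 against 0.01 to 0.22), whereas in the 98 other mitosis genes anti-CD3/CD28 replicate 3 is within the DMGV range.

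Markers of the T cells themselves had the opposite sign. All 13 T cell markers had positive log2 fold changes, with a median of 0.13, of which 1 was at an unadjusted p under 0.05, against 1.63% of all genes higher at that threshold. In 3 of the 13 every DMGV sample was above every control, against 4.92% of all genes. Their summed level was 3850 to 4409 CPM alone and 4230 to 4632 CPM with DMGV, so the groups overlapped. Of 9 markers of activated T cells 5 were higher, with a median of 0.05. B cell markers summed to 10.7 to 13.7 CPM alone and 12.8 to 13.5 CPM with DMGV, with 5 of 9 tested. Myeloid markers summed to 13.1 to 18 CPM alone and 14.2 to 16.3 CPM with DMGV, with 5 of 10 tested and Cd14 at 0. Erythroid markers, listed because dividing red cell precursors of the spleen express the same mitotic genes, summed to 4.88 to 6.05 CPM alone and 3.50 to 5.02 CPM with DMGV, with 6 of 10 tested and Hba-a2, lower at an unadjusted p under 0.05, at no more than 1.29 CPM. NK cell markers summed to 71.5 to 78.1 CPM alone and 74.6 to 82.9 CPM with DMGV, mostly Eomes. Of the others, Klrk1 had 9.32 to 19.8 CPM, and Ncr1, Klrb1c and Klra8 were each at no more than 0.858 CPM. Plasma cell markers summed to 96.5 to 155 CPM alone and 96.8 to 151 CPM with DMGV, mostly Xbp1. All 5 neutrophil markers were at 0. The part of the cell makeup in the result was not tested.

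The counts per transcript showed 1 larger difference. These rows were examined after their values were seen. Of the 45 genes 41 had counts for more than 1 transcript, and in 34 the same transcript led in all 6 samples. Lead shares did not overlap between the groups for 6 of the 41 genes, against 8.94% of 8360 genes with at least 100 counts in every sample, and in 1 of them, Racgap1, the mean shares were more than 50 percentage points apart, as in 0.167% of those genes (14 genes). Racgap1 encodes the GTPase activating subunit of centralspindlin.

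At the gene level Racgap1 differed little, with 89.5, 86.5 and 85.7 CPM alone and 85.7, 77.8 and 78.9 CPM with DMGV (-0.11, SE 0.08, unadjusted p = 0.19). Its transcripts Racgap1-201 and Racgap1-213 differed in opposite directions. Racgap1-201 had 2769, 2438 and 2406 counts alone and 440, 478 and 358 counts with DMGV. Racgap1-213 had 61, 330 and 491 counts alone and 2544, 2493 and 2234 counts with DMGV. All 3 controls were thus on one side and all 3 DMGV samples on the other, and Racgap1-201 made up 67.8% to 81.5% of the gene's transcript counts alone and 11.4% to 14.3% with DMGV.

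The call depended on the tool. For Racgap1-201 edgeR, fitted on 38401 transcripts, gave a log2 fold change of -2.67 (SE 0.16) with an adjusted p of 0.217 (0.184 to 0.306 when 1 sample was left out), and 0 of 142 transcripts of the 45 genes were called, as were 0% of all transcripts, with 1235 of all at an unadjusted p under 0.05. DESeq2 gave it an adjusted p of 2.03e-29, and called 3 transcripts of the 45 genes, where 0.724% of all transcripts (387 transcripts) were called. For Racgap1-213 the edgeR log2 fold change was 2.99 (SE 0.72), with an adjusted p of 0.948 in edgeR and 0.0276 in DESeq2. The third transcript DESeq2 called was a retained intron form of Bub3, with 49, 112 and 81 counts alone and 502, 236 and 323 counts with DMGV (edgeR adjusted p 0.716, DESeq2 adjusted p 0.0128).

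In the GENCODE M21 annotation the pair of Racgap1 transcripts share 2920 bases and the same coding sequence of 1884 bases. Racgap1-213 has 1 further exon of 131 bases, outside the coding sequence. Few reads can tell the transcripts apart, and how the authors' software divided the shared reads between them is not stated, so these counts are estimates whose error the replicates only partly show. For Kif20a too, how shared reads were divided is not stated. Its transcripts Kif20a-201 and Kif20a-202 have the same coding sequence and share 2876 bases, with 231 and 270 bases of their own. Kif20a-201 had 1825, 3493 and 2030 counts alone and 671, 0 and 1432 counts with DMGV, and Kif20a-202 had 1356, 7 and 1546 counts alone and 2738, 3068 and 1390 counts with DMGV. Kif20a-202 made up 42.6%, 0.2% and 43.2% of the gene's transcript counts alone and 80.3%, 100% and 49.3% with DMGV, shares that did not overlap between the groups but varied widely within each.

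**Figure D5:**
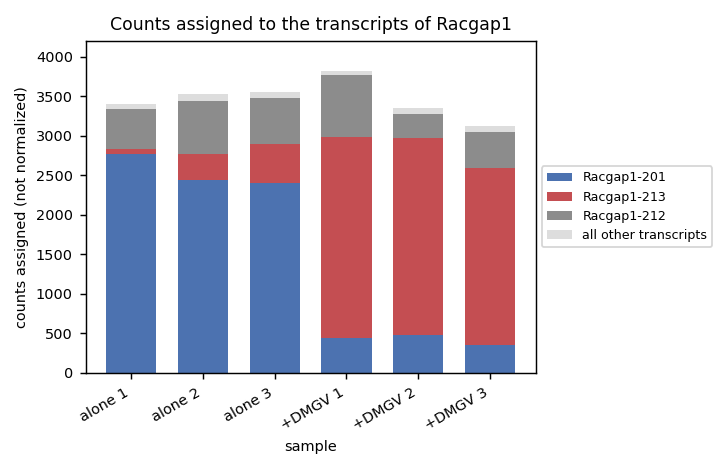
Counts assigned to the transcripts of Racgap1 in each of the 6 samples, stacked, not normalized. The bars are of similar height, while Racgap1-201 (blue) leads in the 3 samples activated alone and Racgap1-213 (red) in the 3 with DMGV.

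Over 17 other ways of fitting, the sign of a gene's difference was the same as here for 38 of the 45 genes, and 0 of the 45 were called in any of them, with a smallest adjusted p of 0.260. The median log2 fold change stayed between -0.28 and -0.20. The genes whose unadjusted p was under 0.05 in all 17 were Tpx2, Spc24, Kif2c and Mki67. The count of genes lower at an unadjusted p under 0.05 was less stable, from 6 without DMGV replicate 2 to 24 after the GC correction. It was 8 without DMGV replicate 1 and 8 without DMGV replicate 3. In the fits without DMGV replicate 1, 2 or 3, the share of all genes lower at that threshold was 1.55%, 1.24% and 1.41%. Without anti-CD3/CD28 replicate 3, 22 of the 45 genes were lower and 1, Bub3, was higher at that threshold, in a fit where 3.72% of all genes were lower.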

How the data were processed

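RNA-seq libraries of 6 samples, 3 per group, were used, with groups and replicate numbers taken from the labels. Per the labels, the authors mapped the reads with HISAT2 2.0.4 and the build mm9, while the identifiers are Ensembl ones, of which 99.7% matched GENCODE M21 without version. The paper names SOAPnuke and StringTie. Deposited by the authors were counts per gene and per transcript, as whole numbers without normalization. They sum to 37758725 to 43718867 per sample, and the step from StringTie's output to counts is not stated, so they may not be whole reads. The deposited FPKM, scaled by the authors for length and depth, served for levels between genes and as an alternative.

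The main test was edgeR 4.0.16 (R 4.3.3), quasi-likelihood, two-sided, TMM normalization, default low-count filter, Benjamini-Hochberg adjustment, threshold 0.05. CPM are TMM-scaled. Alternatives were DESeq2 1.42.0, other size factors, no filter, summed transcript counts, limma 3.58.1 on log2(FPKM + 1) and log2(FPKM + 0.1), a loess GC correction (span 0.3), the replicate number as a block, and each sample left out. After the data had been seen, a fit without both libraries that stood apart and the transcript fits were added. The edgeR code was also run on counts simulated from its own estimates, a check of the code and not of these results. No pair of samples agreed within sampling noise (median chi-square per gene 4.24 to 10.9).

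The 45 genes and all lists were chosen with earlier results of these data known. Named were, in each role group, the gene of highest FPKM and that of smallest p, every gene at an unadjusted p under 0.05, Mki67, Plk1 and Aurkb, and in other lists the gene of smallest p. Others were chosen after their values were seen. Promoters were printed for the lowest and highest log2 fold change over 10 FPKM and for the 2 genes of highest FPKM, of which Smc4 has no entry. Python 3.11.15, with pandas 2.3.3 and matplotlib 3.10.9, handled the tables and figures.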

Additional observations from a re-analysis of the deposited data

How the results depend on the processing

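The median log2 fold change of the 45 genes ran from -0.28 to -0.20 over the 17 alternatives, and 0 of the 45 were called in each. The count lower at an unadjusted p under 0.05 was 15 in the main analysis, 24 with the GC correction, and 6 to 22 when 1 sample was left out. Also, 1 gene was higher at that threshold in 1 of these fits, Bub3 without anti-CD3/CD28 replicate 3. With the replicate number as a block the count lower was 8, and the block with the GC correction gave 18. Deviations from the group means of same-numbered samples had correlations over genes of -0.154, 0.121 and -0.148. The largest correlation, 0.31, was between anti-CD3/CD28 replicate 3 and DMGV replicate 1, the 2 libraries that stood apart. In groups of 3 that shared deviation weighs on the other correlations, so they cannot decide whether the numbers pair samples. The 2 genes called among all genes became 1 with library size alone, 1 without the filter, 14 with DESeq2, 0 with either FPKM scale, 0 with the block, with or without the GC correction, 6 at an adjusted p under 0.1, 12 without both libraries that stood apart, and 0 to 5 when 1 sample was left out.

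Of 765 values for single genes 27 changed sign, in 7 genes that were near 0 or imprecise. Fzr1 was -0.0045 with DESeq2-style size factors, -0.011 with library size alone, -0.0033 with DESeq2, -0.019 and -0.021 on the FPKM scales, -0.0056 with the block, -0.046 with the GC correction, -0.051 with that and the block and -0.077 without both libraries. Ndc80 was 0.018 with the GC correction, with or without the block. Without both libraries Cdca8 was 0.029 and Kif22 0.017. When 1 sample, or both of those libraries, were left out, the ranges were -0.075 to 0.029 for Cdca8, -0.087 to 0.088 for Fzr1, -0.12 to 0.31 for Pttg1, -0.18 to 0.15 for Ndc80, -0.16 to 0.35 for Spc25, -0.15 to 0.017 for Kif22, -0.70 to 0.060 for Smc4. The cause of these changes was not tested. The smallest count of the 45 genes in a sample was 336. How much of the error came from counting was not tested.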
